A study of Mus musculus with 4 samples.

Results

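Basement membrane collagens and their partners were examined as a group of 9 genes, namely Col4a1, Col4a2, Col18a1, Nid1, Hspg2, Lamb1, Lamc1, Sparc and Serpinh1, out of 53465 genes counted in the series. The genes were taken by symbol, because the collagen IV and XVIII chains had lower counts with EGCG in these same libraries. The values of the 9 genes in the comparison of EGCG with control are therefore a description and carry no test. MDSCs, the immature myeloid cells that expand in hosts with a tumor, were sorted from the spleens of BALB/c mice that carried 4T1 cells, a transplantable mammary carcinoma line. The control group consisted of MDSCs kept for 6 h in control medium (2 libraries). The EGCG treatment group consisted of MDSCs kept for 6 h with 5 μg/mL EGCG (2 libraries), the main catechin of green tea. All 4 libraries came from tumor-bearing males that were 6 weeks old when injected with 1000000 4T1 cells, so no library represents a healthy mouse. The labels place the sacrifice on day 21 after injection, whereas the methods of the study give an earlier day for the sort. Whether replicates come from separate mice, pools or wells is not given in the sources used here, so p-values measure only the spread between these libraries, which may be technical.

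Basement membranes are thin sheets of extracellular matrix under endothelium and epithelium and around muscle cells. Chains of collagen IV assemble into triple helices that crosslink into a network, laminin trimers form another network at the cell surface, and nidogen and the proteoglycan perlecan connect them. Collagen XVIII sits at the border of the basement membrane and the stroma, SPARC binds collagen, and HSP47, the product of Serpinh1, is a chaperone of collagen in the endoplasmic reticulum. In the spleen, such matrix lines sinuses and vessels.

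The MDSCs were enriched with magnetic beads through an antibody against Gr-1, an epitope of Ly-6G and Ly-6C, and purity was judged among CD45+ cells, which leaves cells without CD45 out of view. Between 17767318 and 18390385 reads were counted on genes per library. Markers of neutrophils and MDSCs (Itgam, Ly6g, S100a8 and others) summed to between 47924 and 67302 CPM (counts per 1000000 reads, scaled by TMM), so markers of the labelled cells were abundant in every library. Control replicate 1 stood further from the EGCG libraries (chi-square of counts of 16.2 and 12.5 per gene) than control replicate 2 did (7.62 and 6.73), while the control libraries differed from each other by 6.89 and the EGCG libraries by 6.69. The fold changes of the 8 genes with enough reads are therefore also given with control replicate 1 left out.

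Col4a1 (ENSMUSG00000031502) and Col4a2 (ENSMUSG00000031503) encode the chains of the most widespread collagen IV trimer. On GRCm38 they lie head to head on chromosome 8, Col4a1 from 11198423 to 11312826 on the minus strand and Col4a2 from 11312805 to 11449287 on the plus strand. Their annotated first exons overlap by 22 bases. The stretch around both starts (chr8:11312801-11312830, plus strand, RefSeq, GRCm38.p6) is shown because both genes are transcribed away from it, with the overlapping 22 bases in capitals.
Col4a2 and Col4a1 start: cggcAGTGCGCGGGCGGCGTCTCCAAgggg
The overlap holds 1 GC box (GGGCGG). The deposited table is named as non-stranded counts, so reads in the overlap cannot be assigned by strand. The overlap makes up 0.295% of the exonic bases of Col4a1, and 0.982% of those of Col4a2 are shared with Col4a1 or Gm15419.

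Col4a1 was at 22.6 and 22 CPM in control replicates 1 and 2, from 412 and 393 reads. In EGCG replicates 1 and 2 it was at 10.5 and 11.1 CPM, from 191 and 199 reads. Both EGCG libraries thus lay at about the same level, below both control libraries, and 48.6% of the mean control level was left. The log2 fold change of Col4a1 was -1.04 (standard error 0.12), and it was -1.02 without control replicate 1. Control replicates 1 and 2 held Col4a2 at 18.1 and 17.7 CPM, and EGCG replicates 1 and 2 at 10.4 and 10.2 CPM. Its replicates were even closer to each other, the groups did not overlap, and 57.5% of the control level was left. The log2 fold change of Col4a2 was -0.80 (standard error 0.12; -0.78 without control replicate 1).
Per kilobase of exon, the ratio of Col4a1 to Col4a2 was 1.10 in both control libraries, 0.901 in EGCG replicate 1 and 0.964 in EGCG replicate 2. By this length Col4a1 was above Col4a2 in the control libraries and below it in the EGCG libraries, but with the length of the longest transcript Col4a1 stayed above Col4a2 with EGCG (means of 1.64 and 1.6 RPKM). The shift in the ratio was not tested.

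Col18a1 (ENSMUSG00000001435, chromosome 10, from 77052178 to 77166548, minus strand) encodes collagen XVIII, whose C-terminal fragment is endostatin, an inhibitor of angiogenesis. Its level was 7.94 and 7.55 CPM under control medium, against 3.14 and 4.2 CPM under EGCG. The EGCG libraries differed more from each other than the control libraries did, but both were below them. The log2 fold change of Col18a1 was -1.08 (standard error 0.20), -1.04 without control replicate 1, and between -1.30 and -0.88 with any library left out. Col18a1 has 2 start sites in the RefSeq promoter table, and the counts per gene do not tell them apart. The sequence before the upstream start (chr10:77166549-77166780, minus strand, GRCm38.p6) is shown because it differs from the other window of the gene in holding GC boxes, which are in capitals.
Col18a1 upstream start: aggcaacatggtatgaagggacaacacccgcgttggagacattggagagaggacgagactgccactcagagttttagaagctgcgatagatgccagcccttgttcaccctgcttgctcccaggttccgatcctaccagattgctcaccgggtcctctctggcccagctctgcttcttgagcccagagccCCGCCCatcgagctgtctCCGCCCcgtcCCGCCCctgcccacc

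Hspg2 (ENSMUSG00000028763, chromosome 4, from 137468769 to 137570630, plus strand) encodes perlecan, the large heparan sulfate proteoglycan of basement membranes. Reads of Hspg2 were few for 14.3 kb of exons, namely 81 and 63 under control medium and 31 and 40 under EGCG. These correspond to 4.44 and 3.53 CPM against 1.71 and 2.24 CPM. The groups did not overlap, although the control libraries themselves were spread more widely than for the collagen IV chains. The log2 fold change of Hspg2 was -1.01 (standard error 0.26) and -0.83 without control replicate 1. The sequence before its start (chr4:137468553-137468768, plus strand, GRCm38.p6) holds 5 GC boxes (capitals), the most among the windows examined.
Hspg2: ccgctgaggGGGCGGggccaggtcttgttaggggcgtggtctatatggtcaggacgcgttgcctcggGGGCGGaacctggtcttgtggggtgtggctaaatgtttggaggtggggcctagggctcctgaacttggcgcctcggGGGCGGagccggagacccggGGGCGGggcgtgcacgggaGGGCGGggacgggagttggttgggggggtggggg

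Among the laminin chains, Lamc1 (ENSMUSG00000026478, chromosome 1, from 153218922 to 153332786, minus strand) encodes the γ1 chain that most laminins share. Its level was 15.5 and 15.7 CPM under control medium and 12.5 and 13.3 CPM under EGCG, and the groups did not overlap. Lamc1 had the smallest difference of the tested genes, with 82.6% of the control level left and a log2 fold change of -0.28 (standard error 0.12; -0.28 without control replicate 1). Lamb1 (ENSMUSG00000002900, chromosome 12, from 31265234 to 31329644, plus strand) encodes the β1 chain, its usual partner. It had 4 and 0 reads under control medium and 1 and 3 reads under EGCG, so the groups overlapped. With so few reads Lamb1 did not pass the filter on low counts, and a difference was not detectable at this depth. The 4 reads of control replicate 1 have an exact 95% Poisson interval from 1.09 to 10.2, which covers counting error only, and the 0 of control replicate 2 has one from 0 to 3.69. Nid1 (ENSMUSG00000005397, chromosome 13, from 13437551 to 13512269, plus strand) encodes nidogen, which links the laminin and collagen IV networks. Under control medium it was at 4.38 and 5.04 CPM, and under EGCG at 2.81 and 3.42 CPM. The EGCG libraries lay below the control libraries, and the log2 fold change of Nid1 was -0.60 (standard error 0.22) and -0.69 without control replicate 1. Of the exonic bases of Nid1, 2.06% overlap those of Gm48682 on the other strand.

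Sparc (ENSMUSG00000018593, chromosome 11, from 55394500 to 55423183, minus strand) encodes a secreted collagen-binding protein. Under control medium it reached 8.65 and 7.0 CPM, and under EGCG 4.36 and 5.43 CPM. The groups were apart, but control replicate 2 and EGCG replicate 2 came close to each other. The log2 fold change of Sparc was -0.68 (standard error 0.19), and it was -0.51 without control replicate 1. Serpinh1 (ENSMUSG00000070436, chromosome 7, from 99345376 to 99353239, minus strand), which encodes the chaperone HSP47, had 20 and 18 reads under control medium and 12 and 7 reads under EGCG, with no overlap. The log2 fold change of -0.99 carried the largest standard error of the group (0.45), was -0.92 without control replicate 1 and spanned -1.41 to -0.66 when single libraries were dropped. The reads of Serpinh1 are too few for more than a rough size, since the exact 95% Poisson interval is 10.7 to 28.4 for control replicate 2 and 6.20 to 21.0 for EGCG replicate 1, which overlap.

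**Figure D1:**
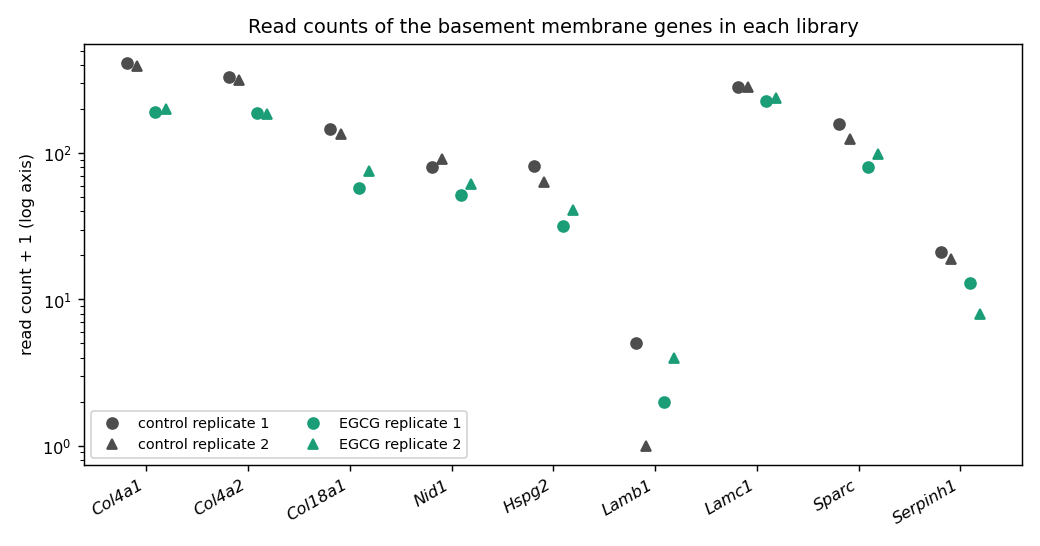
Read counts of the 9 genes in each library, plotted as count + 1 on a log axis, with circles for replicate 1 and triangles for replicate 2 (grey for control, green for EGCG). Col4a1 sits at 412 and 393 reads in the control libraries against 191 and 199 with EGCG, and Lamb1, from 0 to 4 reads, is the only gene whose groups overlap.

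Across the group, 8 of the 9 genes had enough reads to be tested, and all 8 had lower levels in both EGCG libraries than in both control libraries. Of all 14682 tested genes, 21.2% showed that pattern, and 49.4% had a log2 fold change below 0. In edgeR's quasi-likelihood fit over all tested genes, 2 of the 8 (Col4a1 and Col4a2) had a Benjamini-Hochberg adjusted p under 0.05, against 0.136% of all tested genes called lower with EGCG. As the genes were picked from this comparison, nothing is read from these shares. The number of genes under the threshold was 3 without control replicate 1, 5 without control replicate 2, 3 without EGCG replicate 1 and 5 without EGCG replicate 2. Over all genes tested in these fits, 72, 235, 90 and 199 genes were called lower, against 20 with all libraries. In each of these fits 1 group is a single library that is assumed to vary like the other group, and nothing is read from these counts either. Together the 9 genes summed to 82.9 and 79.6 CPM under control medium and to 46.2 and 50.5 CPM under EGCG. For the 8 genes the median log2 fold change was -0.89, next to 0.0031 for all genes tested. With a correction for gene length in each library these medians were -0.80 and 0.03. By size, Col18a1, Col4a1, Hspg2 and Serpinh1 lay at about 1 log2 unit below control, Col4a2, Sparc and Nid1 between -0.80 and -0.60, and Lamc1 at -0.28. The order of the first 7 was not firm, since with a library left out Hspg2 reached -0.83 and Serpinh1 -0.66, while Sparc reached -0.84. Ranked from the lowest fold change of all tested genes, Col18a1 came 105th and Lamc1 1925th.

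**Figure D2:**
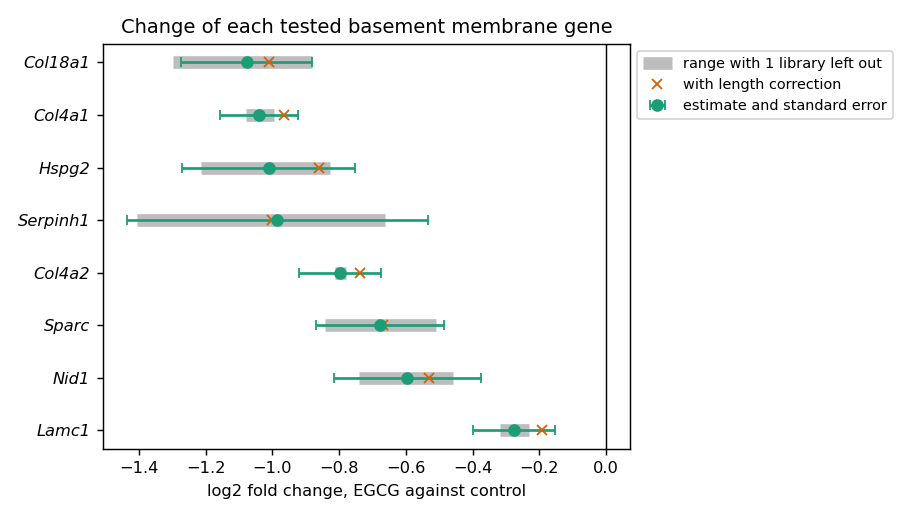
Log2 fold change of EGCG against control for the 8 tested genes (points, with bars of 1 standard error), the range with 1 library left out (grey), and the value with a length correction (crosses). All points lie below 0, from -1.08 for Col18a1 to -0.28 for Lamc1, and Col4a1 and Col4a2 have the narrowest errors next to Lamc1.

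Levels were compared between genes per kilobase of exon (RPKM from TMM-scaled counts). In the control libraries, Col4a1 (2.98 ± 0.054 RPKM, SD, n = 2) and Col4a2 (2.71 ± 0.041 RPKM, SD, n = 2) were highest. They were followed by Sparc (2.07 ± 0.31 RPKM, SD, n = 2) and Lamc1 (1.89 ± 0.019 RPKM, SD, n = 2), whose libraries overlapped. Below them came Col18a1 (1.10 RPKM), Nid1 (0.678 RPKM), Serpinh1 (0.430 RPKM), Hspg2 (0.278 RPKM) and Lamb1 (0.0110 RPKM), with no overlap between neighbors. In the EGCG libraries, Lamc1 (1.56 RPKM), Col4a2 (1.56 RPKM), Col4a1 (1.45 RPKM) and Sparc (1.29 RPKM) lay close together, so that the lead of the collagen IV chains over Lamc1 was gone. The top of this order depends on the gene model, since with the length of the longest transcript Sparc (3.40 RPKM) was level with Col4a1 (3.37 RPKM) in the control libraries.

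Replicates of a group were compared as a view of the genes that the choice of genes did not use. Between the control libraries, 6 of the 8 genes were higher in replicate 1, as were 50.3% of all tested genes. The differences in log2 CPM ran from -0.20 for Nid1 to 0.32 for Hspg2. Between the EGCG libraries, 2 of the 8 genes were higher in replicate 1, as were 48.7% of all tested genes. Here Col18a1 (-0.41), Hspg2 (-0.37), Sparc (-0.31) and Nid1 (-0.27) were all lower in EGCG replicate 1, whereas Serpinh1 (0.62), with 12 and 7 reads, was higher there. Col4a1 (-0.08), Lamc1 (-0.08) and Col4a2 (0.02) had the smallest differences. The median size of the difference was 0.09 between the controls and 0.29 between the EGCG replicates, next to 0.14 in both for all tested genes. That reference is not matched for read depth, on which such differences depend. By mean CPM the 8 genes lay between percentiles 6.9 (Serpinh1) and 52.9 (Col4a1) of all tested genes. Whether the replicates varied more under EGCG was not tested.

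Promoter windows, from 250 bases before to 50 bases after an annotated start, were found in the RefSeq table (GRCm38.p6) for 8 of the 9 genes, Lamc1 being the exception, with 9 windows in all. A GC box (GGGCGG, both strands, overlapping matches counted) occurred in 7 of the 9 windows and in 35.7% of all 32851 windows. The windows of Sparc and of the downstream start of Col18a1 held none. A CCAAT box (CCAAT, both strands) occurred in 5 windows, against 37.4% of all windows. TATAAA (both strands) and TGANTCA, the letters of an AP-1 motif, occurred in 0 of the 9 windows, against 13.6% and 7.81% of all windows. The windows of Col4a1 and Col4a2 overlap and share part of their matches. The median GC content was 63.7% in the 9 windows and 52.7% in all windows. These are letter matches only, and no binding was measured.

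Other genes of the same matrix, its synthesis and its receptors were taken as 4 lists that do not hold the 9 genes. Of 28 other basement membrane genes, 9 were tested, of which 7 had lower and 2 had higher fold changes, with a median of -0.24 (without control replicate 2 it was -0.063, and dropping EGCG replicate 1 gave -0.087). The most abundant were Tinagl1, an adhesion protein of basement membranes, at 88.2 CPM in the control and 99.2 CPM in the EGCG libraries (log2 fold change of 0.17, standard error 0.08), and Agrn, the proteoglycan agrin, at 56.3 and 44.4 CPM (-0.34, standard error 0.09). Lama5, the α5 chain of vascular laminins, was at 16.9 and 11.9 CPM (-0.50, standard error 0.13), and Col15a1, the closest relative of Col18a1, was at 16.4 and 15.2 CPM (-0.11, standard error 0.13). The direction of Col15a1 rested on EGCG replicate 1, without which it was 0.07. The laminin β2 chain gene Lamb2, named after its values were seen, had the lowest fold change of this list (-1.14, standard error 0.46), from 22 and 16 reads under control medium and 7 and 10 reads under EGCG. The remaining collagen IV chains, Col4a3 to Col4a6, had at most 10 reads in any library and were not tested. Of 36 other collagens, 10 were tested and 7 were lower, with a median of -0.23. These led with Col11a2 (13.2 CPM in control and 11.5 with EGCG), Col6a4 (11.8 and 9.84), Col20a1 (10.4 and 10.4) and Col9a2 (11 and 9.08). The control libraries of Col20a1 were far apart, at 12.7 and 8.11 CPM, and leaving out the first gave a log2 fold change of 0.37 and leaving out the second -0.28. Without control replicate 1 that of Col6a4 was -0.15, and that of Col11a2 was -0.34 without EGCG replicate 1 and -0.07 without EGCG replicate 2. The fibrillar chains Col1a1, Col1a2 and Col3a1 had at most 14 reads in any library. Col8a1, a short-chain network collagen named after its values were seen, had 1 read in control replicate 1 and 0 in the other libraries.
Of the collagen folding, modification and secretion genes, 30 of 31 were found by symbol and 17 were tested, with 11 lower, 6 higher and a median of -0.07. P4hb, the β subunit of prolyl 4-hydroxylase, was at 213.4 CPM in the control and 203.8 CPM in the EGCG libraries (log2 fold change of -0.07, standard error 0.08). Tmem131 (125.1 and 116.5 CPM) and Mia3 (93.5 and 88.1 CPM), both needed for collagen secretion, and the lysyl hydroxylase Plod3 (75.8 and 79.4 CPM) had fold changes within 0.11 of 0 on the log2 scale. With a library left out, the fold change of P4hb ran from -0.14 to 0.01 and that of Plod3 from -0.03 to 0.19, so neither had a firm direction. That of Tmem131 ran from -0.16 to -0.04 and that of Mia3 from -0.12 to -0.04, both nearest to 0 without control replicate 1. Across the list the fold changes ran from -0.44 for Loxl3 to 0.19 for Kdelr1. The median was -0.0021 without control replicate 1.
Of 24 receptors, 16 were tested and 14 were lower, with a median of -0.20 (-0.12 without control replicate 1). The most abundant, Rpsa, which encodes the laminin receptor precursor and ribosomal protein SA and has many pseudogene copies that could take its reads, was at 443.5 and 474.0 CPM (log2 fold change of 0.10, standard error 0.08). Itgb1, the shared β1 integrin subunit, was at 163.9 and 162.8 CPM (-0.0090, standard error 0.08). Itgb3 was at 141.3 and 124.0 CPM (-0.19, standard error 0.07), and Stab1, a scavenger receptor for SPARC, at 95.4 and 84.7 CPM (-0.17, standard error 0.09). Without control replicate 1 the fold change was -0.04 for Stab1 and 0.02 for Rpsa, and that of Itgb1 ran from -0.08 to 0.06 with a library left out.
In the same edgeR fit, 0 genes of the 4 lists had an adjusted p under 0.05, against 0.150% of all tested genes in either direction. At an unadjusted p under 0.05 (12.2% of all tested genes, 7.02% lower and 5.22% higher), there were 4 of 9 other basement membrane genes, 2 of 10 other collagens, 2 of 17 folding and secretion genes and 6 of 16 receptors. DESeq2, which gave an adjusted p for 5, 1, 13 and 13 of these genes, called 0. The smallest adjusted p, in genes named after their values were seen, were 0.0902 for the syndecan Sdc3 (73.0 and 48.8 CPM, log2 fold change of -0.58, -0.39 without control replicate 1) and 0.110 for the collagen-binding integrin subunit Itga1 (24.6 and 17.4 CPM, -0.50, -0.61 without control replicate 1).

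**Figure D3:**
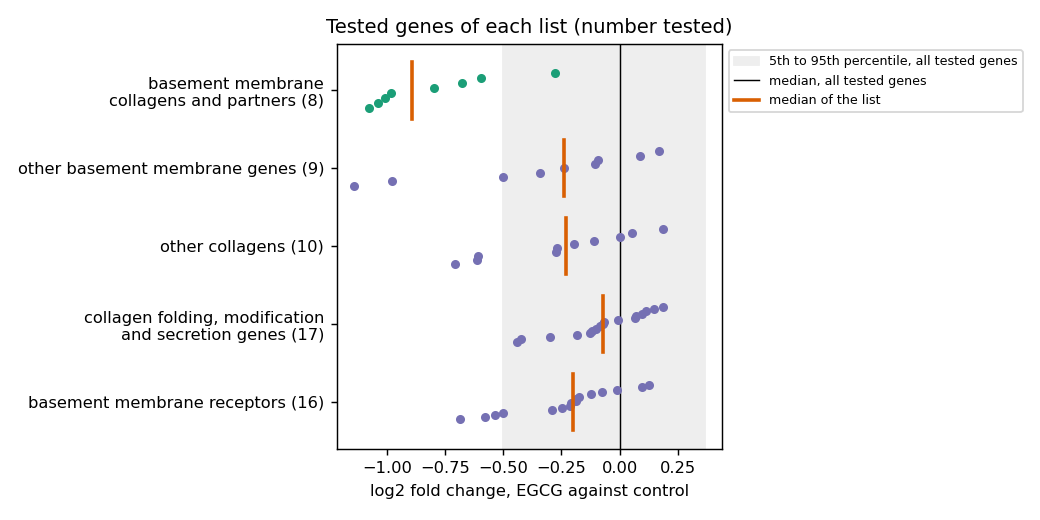
Log2 fold change of each tested gene in the selected group and in the 4 lists (number tested in parentheses), with the median of each list (orange), and the median (black) and the 5th to 95th percentile (grey, -0.50 to 0.37) of all tested genes. The selected genes have a median of -0.89, against -0.24, -0.23, -0.07 and -0.20 in the lists.

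Markers of other cell types that a splenic sort could hold were measured beside the 9 genes. In RNA from a mixed population, fewer cells of a type and less RNA per cell cannot be told apart. Of 12 endothelial markers, 11 were tested, all 11 had lower fold changes (median -0.65), and for 9 of them both EGCG libraries lay below both control libraries, as did 21.2% of all tested genes. Log2 fold changes of the 11 ran from -1.22 for Esam to -0.19 for Cldn5. As examples, Cdh5, the adhesion molecule of endothelial junctions, was at 6.90 and 6.38 CPM under control medium and 3.25 and 4.03 CPM under EGCG. Plvap was at 8.43 and 9.51 CPM against 5.63 and 5.82 CPM. By edgeR's quasi-likelihood test, 0 endothelial markers had an adjusted p under 0.05 and 7 of 11 an unadjusted p under 0.05 (7.02% of all tested genes were lower at that p), while DESeq2, which gave an adjusted p for 1 of them, called 0. The list summed to 137.1 and 150.3 CPM under control medium and to 108.1 and 115.3 CPM under EGCG, most of it from Pecam1, which leukocytes also express. Without Pecam1 the sum was 37.1 and 39.3 CPM against 20.8 and 26.3 CPM, which is 54.5% and 68.9% of the control mean in the EGCG libraries. The 9 genes summed to 56.8% and 62.2% of their control mean in the same libraries. The endothelial markers thus moved with the basement membrane genes, and their part in the lower levels of these genes was not tested.
As a description chosen after the values were seen, the reads of each gene were divided by the summed reads of the 11 endothelial markers other than Pecam1 (677, 702, 377 and 470 reads in control replicates 1 and 2 and EGCG replicates 1 and 2). Of the 8 genes, 3 (Col4a1, Col18a1 and Hspg2) were then still lower in both EGCG libraries than in both control libraries. The division lifts every gene alike in the EGCG libraries, so that 0.586% of all tested genes were lower and 86.5% higher in both EGCG libraries by this ratio. As the genes were picked from this comparison, nothing is read from these shares. For Col4a1 the ratio to the summed markers was 0.609 and 0.560 under control medium and 0.507 and 0.423 under EGCG. For Col4a2 it was 0.489 and 0.452 against 0.499 and 0.389, so that the groups overlapped. Lamc1 was on the other side, with 0.418 and 0.40 against 0.602 and 0.504, higher in both EGCG libraries. Nid1 was likewise higher in both EGCG libraries, and the groups of Sparc and Serpinh1 overlapped.
Of the other lists, the 7 macrophage markers were all lower in fold change (summed level of 668.4 and 674.9 CPM against 534.5 and 610.7 CPM), as were the 5 tested megakaryocyte and platelet markers (40.9 and 44.3 CPM against 36.1 and 37.3 CPM). Fibroblast and reticular stroma markers summed to 4.05 and 1.85 CPM under control medium and 1.65 and 1.51 CPM under EGCG, with Lum and Ccl19 at 0 in every library. The EGCG libraries were thus at 56.1% and 51.2% of the control mean, about as low as for the 9 genes. The control libraries themselves were far apart, at 137.4% and 62.6% of that mean. The monocyte markers were at 890.2 and 869.2 CPM against 832.6 and 830.5 CPM. Markers of pericytes and smooth muscle (24.3 and 25.3 CPM against 28.6 and 26.1 CPM) and of T cells (80.8 and 92.1 CPM against 93.9 and 96.7 CPM) had higher sums in both EGCG libraries. Acta2 made up most of the pericyte and smooth muscle sum (22.1 and 24.0 CPM against 26.8 and 24.0 CPM). The pericyte and smooth muscle genes Rgs5 and Des had at most 1 read in any library. For neutrophil, mammary tumor epithelium, B cell, erythroid, and basophil and mast cell markers the sums overlapped between the groups, and the keratin genes Krt14 and Krt5 were at 0. Most of the tumor epithelium sum came from Cdh1 (22 and 20.5 CPM against 16.2 and 19.3 CPM, lower in both), while Epcam (3.56 and 3.30 CPM against 5.07 and 5.54 CPM) and Krt18 (1.04 and 0.560 CPM against 1.32 and 1.06 CPM) were higher in both EGCG libraries. The part of these lists in the levels of the 9 genes was not tested.

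**Figure D4:**
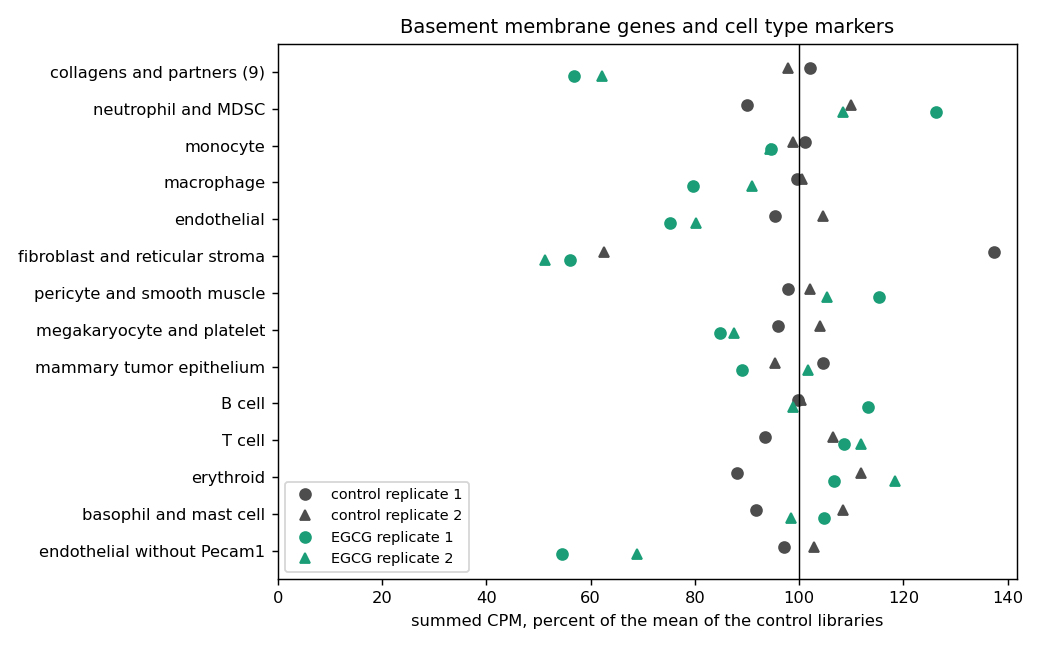
Summed CPM of the 9 genes and of each marker list in each library, in percent of the mean of the control libraries (circles for replicate 1, triangles for replicate 2, grey for control, green for EGCG). The 9 genes sit at 56.8% and 62.2% in the EGCG libraries, next to 54.5% and 68.9% for the endothelial markers without Pecam1 (75.2% and 80.3% with it). The fibroblast and reticular stroma markers, with few reads, sit at 56.1% and 51.2%, while their control libraries are far apart at 137.4% and 62.6%.

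Genes with a similar course over the 4 libraries were sought by the distance of their centered log2 CPM to the mean of Col4a1, Col4a2 and Col18a1. The nearest 5 outside the group were AW121686 (distance 0.101), Sema6d (0.112), Ypel4 (0.115), Gm11685 (0.121) and Cntnap1 (0.131). The genes that make up this mean were themselves at 0.0869 (Col4a1), 0.205 (Col18a1) and 0.212 (Col4a2), and the other tested genes of the group between 0.247 (Hspg2) and 0.694 (Lamc1). Only Sema6d, which encodes a semaphorin, had more than 20 reads in any library. Sema6d had 103 reads in each control library and 51 and 59 reads under EGCG (log2 fold change of -0.90). Over 4 libraries such likeness describes only these libraries.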

How the data were processed

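RNA of MDSCs in control medium and of MDSCs treated with EGCG was sequenced (2 libraries each). Per the methods and the submitters' processing notes, alignment to GRCm38 used STAR (2.6.0c) and read counting used featureCounts (1.6.2) with Ensembl release 91. The authors deposited whole-number counts that were not normalized (0 columns of other samples, 0 rows without a gene name). The deposited table is named as non-stranded, and the handling of reads in overlapping genes is not given in the sources used here. From the counts, genes were filtered with filterByExpr (minimum count of 10), scaled by TMM and tested with edgeR 4.0.16 (quasi-likelihood, legacy form, no block) in R 4.3.3, with Benjamini-Hochberg adjustment over 14682 genes. The test was first tried on simulated data. The standard error is the log2 fold change divided by the square root of F. RPKM used exonic lengths from GENCODE M21 (GRCm38), where 53360 of 53465 identifiers were found. Where 2 rows bore a symbol, the one with more reads was used. Log2 CPM had a prior count of 2.

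The 9 genes and all lists were chosen with earlier results of these data known. Named genes are the 9, list genes under the threshold, the 4 most abundant tested genes of each list, and the 5 nearest profiles. Genes named beyond these, such as the endothelial markers Cdh5 and Plvap, were picked under no such rule. Alternatives were other filters and scalings, DESeq2 1.42.0, edgeR's robust and newer fits, a length correction (loess, span 0.4), a replicate block and leaving out each library. Library totals were 17767318 to 18390385 counts, and exact Poisson intervals cover counting error only.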

Additional observations from a re-analysis of the deposited data

How the results depend on the processing

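All 8 tested basement membrane genes had a log2 fold change below 0 under 13 of the 14 alternatives, and with a minimum count of 20, which leaves 7 tested, all 7 did. With a library left out the sign could hardly change, since both EGCG libraries lay below both control libraries for all 8 genes. As the alternatives use the same counts from which the genes were picked, nothing is read from the shared direction. How many genes were called did depend on the processing. Without a filter on low counts, 0 of the 8 were called, and 0 genes in all were called lower and 0 higher (many more genes are then tested). Over all tested genes, 20 lower and 2 higher genes became 135 and 16 with library size only, 50 and 14 with DESeq2, and 49 and 14 with edgeR's robust fit. Upper-quartile scaling gave 9 lower genes and the length correction gave 3, and the higher genes 1 with a minimum count of 20 and 6 with edgeR's newer form. When a library was left out, the spread came from the 2 libraries of the other group and the lone library was assumed to vary like them. With a library left out, between 72 and 235 genes were then lower and between 5 and 119 higher, and between 3 and 5 of the 8 genes were called.

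The replicate numbers did not pair the libraries (correlation of deviations of 0.03 across genes). With the replicate block 24 genes were lower and 6 higher, and 2 of the 8 genes were called.

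For the other basement membrane genes, a minimum count of 20 left 4 lower genes and a median of -0.10, since fewer genes were tested. Their median was -0.27 with library size only and with the replicate block, -0.21 with the length correction, and between -0.29 and -0.063 with a library left out (the latter without control replicate 2, and -0.087 without EGCG replicate 1), when 0 to 2 were called. The median of the other collagens was -0.27 with a minimum count of 20 and with library size only, -0.16 with the length correction, and between -0.28 and -0.17 with a library left out. The median of the receptors was -0.13 with the length correction and between -0.27 and -0.12 with a library left out, and that of the folding and secretion genes was -0.0073 and between -0.10 and -0.0021. Of the receptors, 2 were called with library size only and 0 to 3 with a library left out, and of the folding and secretion genes 0 to 1. The median control level of the 9 genes was 1.10 RPKM, and 1.38 RPKM with the longest transcript. After division by the endothelial markers, 3 genes (Col4a1, Col18a1 and Hspg2) had groups apart in the lower direction, as did 0.586% of all tested genes. As the genes were picked from this comparison, nothing is read from that share. The causes were not tested. Depth limits Lamb1 and Serpinh1 most.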

Other observations

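Reads of Col1a1, Col1a2 and Col3a1 were few and not spread evenly over the libraries. Control replicate 1 had 9 reads of Col1a1, 14 of Col1a2 and 11 of Col3a1, whereas no other library had more than 4 of any of them. The same library had 27 reads of Pdgfrb, a receptor of pericytes and fibroblasts, next to 10, 15 and 12 in control replicate 2 and EGCG replicates 1 and 2. The 8 tested basement membrane genes had log2 fold changes below 0 without that library as well. This sign could hardly change, since both EGCG libraries lay below both control libraries for each of the 8, so nothing is read from it. The part of these reads in the levels of the 8 genes was not tested. Without control replicate 1, the untested Lamb1 had 0 reads in control and 1 and 3 with EGCG. P3h4, a partner of the collagen prolyl 3-hydroxylases, had 0 reads in both control libraries and 6 in each EGCG library, too few to be tested. These genes were picked after their values were seen.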
